A study of Mus musculus with 18 samples.

Results

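RNA from mice whose mandibular first molar had been extracted was sequenced in 18 libraries, which make up 6 groups of 3 biological replicates. Described here are 10 of the 54532 genes in the deposited count table, picked by name because earlier results of these data showed tooth-forming genes lower in periodontitis: Ambn, Odam, Amtn, Enam, Amelx, Mmp20 and Klk4 of enamel formation, Dspp of dentine formation, and the transcription factor genes Sall3 and Sp9. The groups were mice with periodontitis, sampled 0 d, 3 d or 7 d after extraction, and control mice sampled on the same days, so all of them had lost the tooth. As tissue the labels give the first molar itself, whereas the study's title speaks of extraction sockets. They give no strain, age, sex or method of inducing periodontitis, and do not say whether animals were pooled.

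Enamel is laid down by ameloblasts, epithelial cells that secrete a matrix of amelogenin, ameloblastin and enamelin, which the proteases encoded by Mmp20 and Klk4 then remove while the mineral hardens. Odontoblasts, cells at the edge of the tooth pulp, secrete the collagen and the dentine sialophosphoprotein (Dspp) that become dentine. In mice the ameloblasts of a molar are lost when it erupts, while the incisor keeps growing through life and keeps both cell types. Odam and Amtn are also expressed by the junctional epithelium, which attaches the gum to an erupted tooth.

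The arm difference chose the members, so their values in periodontitis and control are given as a description, with no test. Levels are in CPM, which are counts scaled to a common library size with TMM factors. Library totals lay between 14139830 and 17763605 counts, and at this depth most members had few counts. The 10 genes took 15346 counts in the 18 libraries together. Of these, 302 lay in the 9 periodontitis libraries and 15044 in the 9 control libraries, which is 98.03% of the total for control. Dspp alone made up 11555 of them. Without Dspp the counts were 264 in periodontitis and 3527 in control libraries. Fewer cells of a type and less RNA per cell cannot be told apart in such bulk samples, and all intervals given here cover counting error only.

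The enamel label was checked against the defining ameloblast genes. Ambn had a count in all 18 libraries and Odam in 17 of them. Amelx (chromosome X), which encodes amelogenin, the main protein of forming enamel, had 5 counts in 2 periodontitis libraries and 1 count in 1 control library. Enam, which encodes enamelin, had no count in periodontitis libraries and 11 counts in 4 control libraries. So the counts of the enamel genes came mainly from Ambn, Odam, Amtn and Mmp20 in control, and from Ambn and Odam in periodontitis. Amelx and Enam were at or near 0, so enamel here names the genes and not the cells that expressed them. Which cells those were was not tested.

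**Figure D1:**
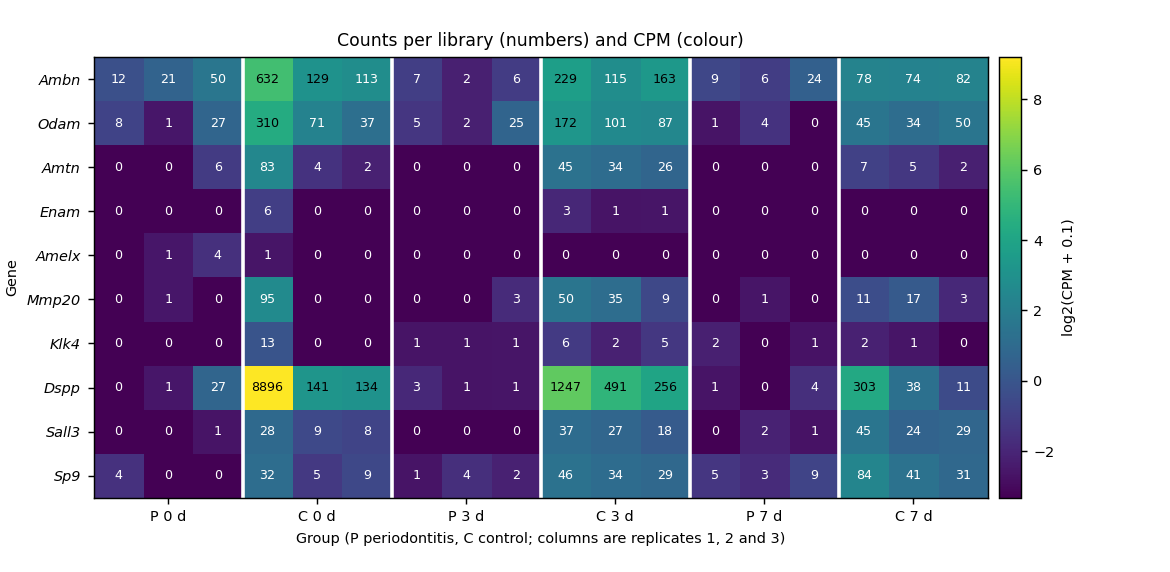
Counts of the 10 genes (rows) in the 18 libraries (columns, replicates 1, 2 and 3 of each group) as numbers, with colour showing log2(CPM + 0.1). Control 0 d replicate 1 holds 8896 counts of Dspp and 632 of Ambn, and no periodontitis library holds more than 50 counts of any member.

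Ambn, Amtn, Enam and Odam lie near each other on chromosome 5. The start regions of Ambn, Odam and Amtn are shown beside that of Mmp20 so that the enamel genes with the most counts can be compared. In the annotation Odam lay 482 kb from Amtn, Amtn 70.1 kb from Ambn and Ambn 19.4 kb from Enam. Sequences are from RefSeq (GRCm38.p6, 250 bases before to 50 after the start, strand of the gene, 5′ to 3′), for Ambn chr5:88455741-88456040 (+), Odam chr5:87884760-87885059 (+), Amtn chr5:88375858-88376157 (+) and Mmp20 chr9:7627981-7628280 (+). Capitals mark matches, on either strand, to TATAAA, the RUNX motif TGTGGT, the AP-1-like motif TGANTCA (N is any base) and the homeobox motif TAATTA.
Ambn promoter: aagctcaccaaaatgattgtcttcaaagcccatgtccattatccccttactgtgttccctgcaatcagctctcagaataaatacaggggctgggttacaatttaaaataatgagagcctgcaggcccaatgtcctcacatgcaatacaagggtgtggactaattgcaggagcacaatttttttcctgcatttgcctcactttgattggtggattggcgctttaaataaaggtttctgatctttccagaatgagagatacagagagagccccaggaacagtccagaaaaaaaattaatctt
Odam promoter: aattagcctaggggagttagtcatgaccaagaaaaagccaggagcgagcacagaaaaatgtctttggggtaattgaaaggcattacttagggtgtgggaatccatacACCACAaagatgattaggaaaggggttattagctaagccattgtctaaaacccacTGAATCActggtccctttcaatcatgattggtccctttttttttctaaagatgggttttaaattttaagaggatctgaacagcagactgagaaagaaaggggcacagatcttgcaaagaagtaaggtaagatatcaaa
Amtn promoter: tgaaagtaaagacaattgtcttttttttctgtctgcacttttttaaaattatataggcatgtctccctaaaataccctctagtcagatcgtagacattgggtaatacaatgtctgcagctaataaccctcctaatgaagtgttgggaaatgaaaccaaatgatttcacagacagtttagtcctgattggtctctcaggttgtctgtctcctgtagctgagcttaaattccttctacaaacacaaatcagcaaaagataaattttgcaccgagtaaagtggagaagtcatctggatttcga
Mmp20 promoter: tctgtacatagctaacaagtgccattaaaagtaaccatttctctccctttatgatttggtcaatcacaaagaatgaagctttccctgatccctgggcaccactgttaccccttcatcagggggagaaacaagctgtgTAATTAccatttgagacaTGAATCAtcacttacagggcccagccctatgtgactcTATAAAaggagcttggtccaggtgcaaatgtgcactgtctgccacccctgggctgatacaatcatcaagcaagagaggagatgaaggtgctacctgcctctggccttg

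Odam had a RUNX match that began 143 bases and an AP-1-like match that began 88 bases before the start. Mmp20 had a homeobox match at 113, an AP-1-like match at 95 and TATAAA at 58 bases before its start. Both AP-1-like matches read TGAATCA. None of these matches overlapped another. Ambn and Amtn had none of the 4 in this window. Of the 32851 promoters in the table, 16.8% held TGTGGT, 7.81% TGANTCA, 5.29% TAATTA and 13.6% TATAAA. The E-box CANNTG, not capitalised, was found in Ambn, Amtn and Mmp20, against 72.3% of all promoters, and the GC box GGGCGG in none of the 4 printed promoters, against 35.7%. A table row was matched for 8 of the 10 members.

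Ambn (ENSMUSG00000029288, chromosome 5, 88455991 to 88468531), which encodes the matrix protein ameloblastin, was the enamel gene with the most counts. At 0 d the periodontitis libraries held 12, 21 and 50 counts, or 0.721, 1.46 and 2.95 CPM, against 632, 129 and 113 counts, or 41.8, 8.36 and 6.90 CPM, in control libraries. At 3 d they held 7, 2 and 6 counts in periodontitis, against 229, 115 and 163 counts in control. At 7 d the counts were 9, 6 and 24 in periodontitis and 78, 74 and 82 in control. Every periodontitis library was below every control library on each day and over all days together. The group means were 1.71 ± 1.14 (0 d), 0.298 ± 0.161 (3 d) and 0.748 ± 0.507 CPM (7 d) in periodontitis and 19.0 ± 19.8, 9.94 ± 2.91 and 4.71 ± 0.0853 CPM in control on the same days (SD, n = 3 each). In the order of the means, control 0 d and 3 d overlapped, control 3 d stood above control 7 d and control 7 d above periodontitis 0 d, and the periodontitis groups overlapped. Summed over a group's libraries, the level in periodontitis was 10.8-fold lower at 0 d (95% interval 8.58 to 13.7), 34.0-fold lower at 3 d (20.4 to 61.2) and 6.11-fold lower at 7 d (4.34 to 8.81). The fitted log2 differences, which weigh libraries rather than counts, were -3.47 ± 0.68, -5.03 ± 0.79 and -2.63 ± 0.70 (SE), and the one for 0 d was -2.12 without control 0 d replicate 1.

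Odam (ENSMUSG00000009580, chromosome 5, 87885029 to 87894174), a gene of maturing ameloblasts and of the junctional epithelium, had the same split between the arms. At 0 d the periodontitis libraries held 8, 1 and 27 counts and the control libraries 310, 71 and 37. At 3 d the counts were 5, 2 and 25 in periodontitis and 172, 101 and 87 in control, and at 7 d 1, 4 and 0 in periodontitis and 45, 34 and 50 in control. No periodontitis library reached the lowest control library on any day, although periodontitis 0 d replicate 3 and 3 d replicate 3 stood above the others of their arm. Mean levels were 0.715 ± 0.788, 0.652 ± 0.785 and 0.106 ± 0.136 CPM in periodontitis at 0 d, 3 d and 7 d, against 9.13 ± 9.93, 7.03 ± 2.24 and 2.59 ± 0.392 CPM in control (SD, n = 3 each). Control 3 d stood above control 7 d, and that group above each periodontitis group, while control 0 d overlapped control 3 d and the periodontitis groups overlapped one another. The summed level was 11.9-fold lower at 0 d (8.43 to 17.2), 11.3-fold lower at 3 d (7.87 to 16.8) and 26.3-fold lower at 7 d (10.97 to 82.2). Leaving out each library in turn moved the fitted log2 difference between -4.93 and -2.19 at 0 d, -5.09 and -2.92 at 3 d and -6.17 and -3.98 at 7 d.

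Amtn (ENSMUSG00000029282, chromosome 5, 88376108 to 88385916), which encodes amelotin of the late enamel surface and of the junctional epithelium, was found in 1 periodontitis library. This was periodontitis 0 d replicate 3, with 6 counts, against 83, 4 and 2 counts in control libraries at 0 d. At 3 d the gene had no count in periodontitis and 45, 34 and 26 counts in control, and at 7 d no count in periodontitis and 7, 5 and 2 in control. The groups overlapped at 0 d and did not at 3 d and 7 d. With the periodontitis group set at a floor of 3 counts over its 3 libraries, Amtn would be 35.2-fold lower at 3 d and 4.75-fold lower at 7 d. These folds are no lower bounds. The exact 95% upper limit of the ratio of periodontitis over control was 0.0356 at 3 d and 0.296 at 7 d. The mean at 0 d was 0.118 ± 0.204 CPM in periodontitis and 1.96 ± 3.06 CPM in control (SD, n = 3 each), and this difference rested on control 0 d replicate 1, without which its fitted log2 value was -0.57 in place of -3.91. Control levels were 2.06 ± 0.447 CPM at 3 d and 0.286 ± 0.160 CPM at 7 d (SD, n = 3 each), so control 3 d stood clear of control 7 d but overlapped control 0 d.

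Mmp20 (ENSMUSG00000018620, chromosome 9, 7628231 to 7674979), the metalloproteinase that cleaves young enamel matrix, had 5 counts in all periodontitis libraries and 220 in control libraries. Periodontitis libraries held 0, 1 and 0 counts at 0 d, against 95, 0 and 0 in control. They held 0, 0 and 3 at 3 d, against 50, 35 and 9 in control, and 0, 1 and 0 at 7 d, against 11, 17 and 3 in control. At 0 d one control library carried every count and the groups overlapped, and the fitted log2 difference of -6.19 turned to 1.93 without that library, a value that then compares 1 count with none. At 3 d and 7 d all control libraries were above all periodontitis libraries, with summed levels 31.5-fold lower in periodontitis at 3 d (10.5 to 156) and 31.55-fold lower at 7 d (5.26 to 1286), where periodontitis held 1 count. Its 3′ end overlaps the antisense gene AV064505, which had 7 counts over all libraries, and the strand setting of the counting is not given in the sources used here.

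Enam, Amelx and Klk4 were too sparse to be tested. Enam (chromosome 5, 88487975 to 88506049) had no count in periodontitis at any day, against 6, 0 and 0 counts in control at 0 d, 3, 1 and 1 at 3 d and none at 7 d. With the same floor it would be 2.04-fold lower at 0 d and 1.68-fold lower at 3 d. The exact 95% upper limit of the ratio of periodontitis over control was 0.831 at 0 d and 1.09 at 3 d, so at 3 d it spans equality. Klk4 (chromosome 7, 43881160 to 43885804), the protease of the hardening stage, had 0, 0 and 0 counts in periodontitis at 0 d, against 13, 0 and 0 in control. It had 1, 1 and 1 in periodontitis at 3 d, against 6, 2 and 5 in control, and 2, 0 and 1 at 7 d, against 2, 1 and 0 in control. So Klk4 was 4.36-fold lower in periodontitis at 3 d (1.20 to 23.9), and the arms held 3 counts each at 7 d. Amelx (169176114 to 169187200 on the minus strand) had 0, 1 and 4 counts in periodontitis and 1, 0 and 0 in control at 0 d, and none later. It was the one member with more counts in periodontitis than in control, and the interval of that ratio, 0.551 to 233, spans equality. It lies within the span of Arhgap6 on the other strand, which had 97 to 209 counts in a library.

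**Figure D2:**
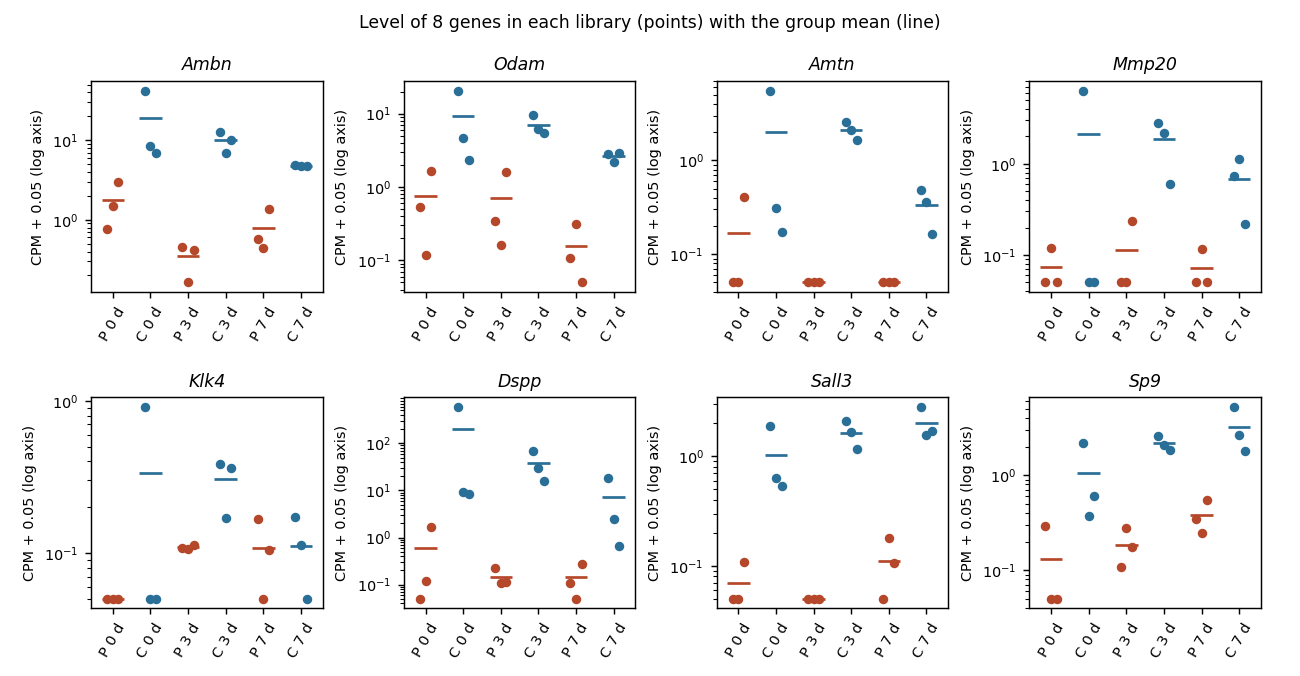
CPM of 8 of the genes on a log axis after adding 0.05 (points are libraries, lines group means, P periodontitis in red and C control in blue; a point at 0.05 is a library with no count). For Ambn, Odam and Sall3 all 9 periodontitis libraries lie below all 9 control libraries, and for Dspp, Amtn, Mmp20 and Klk4 control 0 d replicate 1 lies far above the other control libraries of that day.

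Dspp (ENSMUSG00000053268, chromosome 5, 104170712 to 104180127), the odontoblast gene whose product is cut into the main non-collagen proteins of dentine, had the widest range. Periodontitis libraries held 0, 1 and 27 counts at 0 d, against 8896, 141 and 134 in control. They held 3, 1 and 1 counts at 3 d, against 1247, 491 and 256 in control, and 1, 0 and 4 at 7 d, against 303, 38 and 11 in control. The groups did not overlap on any day, but the highest periodontitis library of 0 d, with 1.59 CPM, was above the lowest control library of 7 d, with 0.627 CPM. Means were 0.554 ± 0.900, 0.0978 ± 0.0665 and 0.0933 ± 0.115 CPM in periodontitis at 0 d, 3 d and 7 d, and 202 ± 335, 38.3 ± 27.8 and 7.23 ± 9.95 CPM in control (SD, n = 3 each). In the order of these means, each group overlapped its neighbour. The summed level was 335-fold lower in periodontitis at 0 d (231 to 504), 401-fold lower at 3 d (172 to 1237) and 71.7-fold lower at 7 d (30.4 to 222). Control 0 d replicate 1 held 77.0% of all Dspp counts. Without it the fitted log2 difference at 0 d was -3.88 in place of -8.43, and leaving out 1 library moved the value between -9.17 and -7.75 at 3 d and between -7.54 and -3.78 at 7 d.

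Per kilobase of gene length, the mean of Dspp stood below that of Ambn in control at 7 d and above it at 0 d. In control the level of Dspp was 1.63 CPM per kb at 7 d and 45.6 CPM per kb at 0 d, and that of Ambn 2.45 CPM per kb at 7 d and 9.92 CPM per kb at 0 d. The order at 0 d rested on control 0 d replicate 1: in the other 2 libraries Dspp was at 2.06 and 1.85 and Ambn at 4.36 and 3.59 CPM per kb. In periodontitis at 0 d Dspp was at 0.125 and Ambn at 0.892 CPM per kb.

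Sall3 (ENSMUSG00000024565, chromosome 18), a zinc finger gene of the spalt family, was absent or near absent from periodontitis libraries. They held 0, 0 and 1 counts at 0 d, against 28, 9 and 8 in control. The counts were 0, 0 and 0 at 3 d in periodontitis and 37, 27 and 18 in control, and 0, 2 and 1 at 7 d in periodontitis and 45, 24 and 29 in control. Every control library was above every periodontitis library over all days. The level in control was 0.975 ± 0.762 CPM at 0 d, 1.60 ± 0.473 CPM at 3 d and 1.98 ± 0.693 CPM at 7 d, with overlap between neighbouring days, and it was at most 0.130 CPM in a periodontitis library. With the floor of 3 counts used for Amtn, the gene would be 27.5-fold lower in periodontitis at 3 d (exact 95% upper limit of the ratio 0.0457). At 0 d and 7 d it was 46.0-fold lower (7.84 to 1856) and 33.3-fold lower (11.1 to 164).

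Sp9 (ENSMUSG00000068859, chromosome 2, 73271925 to 73284706), a transcription factor gene of the Sp family, was also low in periodontitis on each day. Counts were 4, 0 and 0 in periodontitis and 32, 5 and 9 in control at 0 d. They were 1, 4 and 2 in periodontitis and 46, 34 and 29 in control at 3 d, and 5, 3 and 9 in periodontitis and 84, 41 and 31 in control at 7 d. The groups did not overlap within a day, although periodontitis 7 d overlapped control 0 d. The summed level was 11.7-fold lower at 0 d (4.29 to 44.95), 15.7-fold lower at 3 d (7.35 to 39.9) and 9.34-fold lower at 7 d (5.65 to 16.4). The end of Sp9 overlaps Cir1 on the other strand, which had 110 to 367 counts in a library.

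Of the 7 members dense enough to test, Ambn, Odam, Dspp, Sall3 and Sp9 had periodontitis libraries wholly below control libraries at 0 d, and all 7 did at 3 d and at 7 d. Over all 18697 genes tested, 15.3% were placed so at 0 d, 11.3% at 3 d and 6.74% at 7 d, and nothing is read from the members' count, since this contrast chose them. Across the 3 days at once, 7 of the 18697 genes (0.0374%) had all 9 periodontitis libraries below all 9 control libraries. Among them were Ambn, Odam and Sall3 and, outside the members, Cntn6, Ppp1r35 and Txnl4b. Cntn6, which encodes a neural adhesion molecule, lay between 0 and 0.177 CPM in periodontitis and between 0.308 and 1.52 CPM in control. Those outside the members were named after their values were seen.

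The libraries differed widely in how much they carried. Control 0 d replicate 1 held 10096 of the members' 15346 counts, or 65.8%, and without Dspp 1200 counts, or 31.7%. Next came control 3 d replicate 1 with 11.96%. Control 0 d replicate 1 was the top library of Ambn, Odam, Amtn, Enam, Mmp20, Klk4 and Dspp, whereas Sall3 and Sp9 were highest in control 7 d replicate 1. Among periodontitis libraries, 0 d replicate 3 held the most, with 115 counts. Summed over the 7 enamel genes, periodontitis libraries lay between 0.284 and 5.13 CPM (median 1.20) and control libraries between 7.81 and 75.4 CPM (median 13.2).

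**Figure D3:**
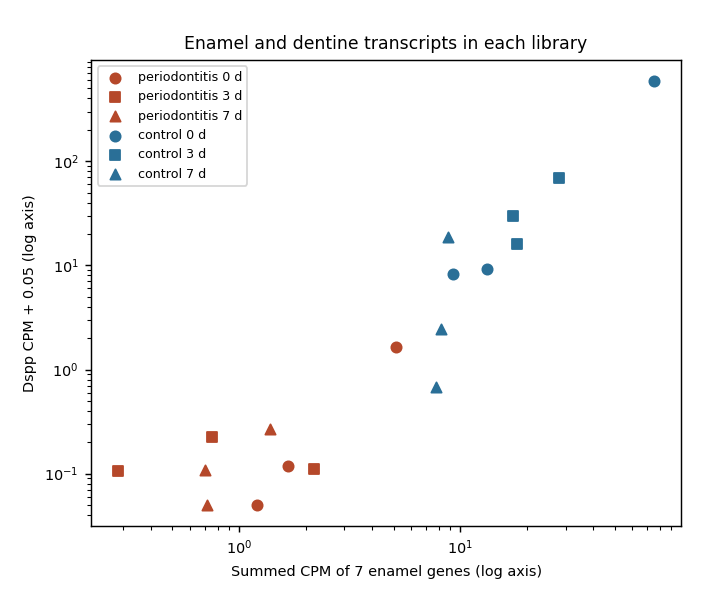
Summed CPM of the 7 enamel genes (x, log axis) against Dspp CPM + 0.05 (y, log axis) in each library, periodontitis in red and control in blue, with a shape for each day. Periodontitis libraries reach 5.13 CPM of enamel genes and control libraries start at 7.81 CPM, while control 0 d replicate 1 stands alone at 75.4 CPM of enamel genes and 589 CPM of Dspp.

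The fitted differences at 0 d moved to unequal degrees when 1 library, of either arm, was left out. Leaving out each library in turn, Sall3 stayed between -6.99 and -4.23 and Ambn between -4.09 and -2.12 on the log2 scale at 0 d. Sp9 lay between -7.02 and -2.26, Dspp between -12.27 and -3.88 and Amtn between -7.99 and -0.57. All 4 counts of Sp9 in periodontitis at 0 d lay in 1 library, as did the 6 of Amtn and the 1 of Sall3. Without that library the gene has no count in the group, and its fitted value depends on the prior count. At 3 d the ranges were -5.33 to -4.64 for Ambn, -4.45 to -3.54 for Sp9 and -7.93 to -4.21 for Mmp20. At 7 d they were -3.32 to -2.33 for Ambn, -5.79 to -4.32 for Sall3, -3.64 to -2.64 for Sp9 and -6.41 to -3.93 for Mmp20. Apart from Mmp20 at 0 d, each tested member was lower in periodontitis on each day in all of these fits. Since this contrast chose the members, nothing is read from the shared sign.

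**Figure D4:**
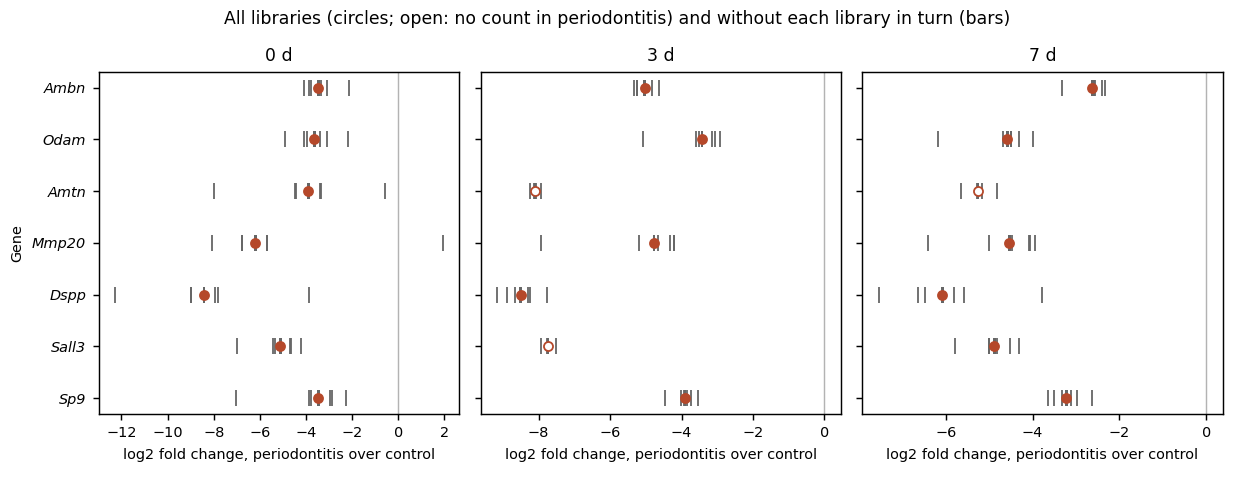
Fitted log2 fold change of periodontitis over control for 7 members at each day, with all libraries (circles) and without each library in turn (bars); open circles mark genes with no count in periodontitis, whose fitted value depends on the prior count. At 0 d the bars of Mmp20, Amtn and Dspp spread widest, up to 1.93, -0.57 and -3.88 without control 0 d replicate 1.

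Markers of other cells were measured beside the members in the same libraries. The summed level of 14 oral epithelium genes, keratins and junction genes, was 128 to 273 CPM in periodontitis and 69.6 to 171 CPM in control at 0 d. It was 48.7 to 176 CPM in periodontitis and 62.5 to 187 CPM in control at 3 d, and 25.3 to 55.9 CPM in periodontitis and 44.6 to 89.5 CPM in control at 7 d. The arms overlapped on each day, and every library had a count of at least 11 of the 14. At 7 d the medians were 32.6 CPM in periodontitis and 77.7 CPM in control, and 10 of the 13 tested markers had a negative log2 difference, with a median of -0.59. The part of epithelium in the members' levels was not tested. Periodontitis libraries of 0 d also held 53.3 to 1198 CPM of 6 skeletal muscle genes, against 18.7 to 41.4 CPM in control, and 35.4 to 1736 CPM of 8 ganglion neuron genes, against 2.46 to 5.76 CPM in control. At 3 d the neuron genes summed to 8.82 to 735 CPM in periodontitis and 7.24 to 766 CPM in control, and at 7 d they stayed under 10 CPM in each arm. Salivary gland genes were at most 20.1 CPM in periodontitis libraries and reached 39.5 CPM in control 3 d replicate 2 and 55.6 CPM in control 7 d replicate 3. Cabs1 and 2310003L06Rik, which lie between Odam and Amtn on chromosome 5, had 154 and 445 counts in control 7 d replicate 3 and at most 1 count in any other library, so they did not share the pattern of their enamel neighbours. Neuron genes were high in 5 libraries, periodontitis 0 d replicates 1 and 3, periodontitis 3 d replicates 1 and 2 and control 3 d replicate 2. Leaving out these 5 left 1 periodontitis library at 0 d and 1 at 3 d. Ambn was then at -3.67 on the log2 scale at 0 d and -4.89 at 3 d, and Sall3 at -6.98 at 0 d. The remaining library, periodontitis 0 d replicate 2, held 0 counts of Sall3, so that value depends on the prior count. The part of muscle or gland tissue in the members' levels was not tested.

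Changes with time within an arm were not used to choose the members, but they share libraries with the arm contrast that did. A high level in control 0 d favours both being picked and a later fall, so these tests are not independent of that choice. The changes were tested in edgeR's quasi-likelihood fit over all genes, called at a Benjamini-Hochberg adjusted p under 0.05. In control libraries 2 of the 7 tested members were lower at 7 d than at 0 d, when 41.3% of all genes were called, 20% as higher and 21.4% as lower. Ambn fell by 2.01 ± 0.63 (SE) on the log2 scale (edgeR adjusted p = 0.0179) and Dspp fell by 4.81 ± 1.44 (edgeR adjusted p = 0.0137), with 3 libraries at each day. Both calls rested on control 0 d replicate 1. Without it Ambn was at -0.68 (edgeR adjusted p = 0.335) and Dspp at -0.25 (edgeR adjusted p = 0.891), and the members called were then Sp9, at 2.85 (edgeR adjusted p = 0.0112), Sall3, at 1.89 (edgeR adjusted p = 0.0387), and Mmp20, all higher at 7 d. For Mmp20 this compares 11, 17 and 3 counts at 7 d with none in the 2 libraries of 0 d that then remained. Over all genes, 7034 of 19251 were called in that fit. With all libraries Sp9 was at 1.67 ± 0.71 (edgeR adjusted p = 0.0729) and Sall3 at 1.02 ± 0.61 (edgeR adjusted p = 0.203). Without control 7 d replicate 2 the adjusted p of edgeR was 0.0550 for Ambn and 0.0585 for Dspp, and without control 7 d replicate 3 it was 0.0546 and 0.0527.

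From 0 d to 3 d no member was called in control libraries (0 of 7 by edgeR and by DESeq2), against 34.7% of all genes, 16.4% higher and 18.3% lower. At an unadjusted p under 0.05 it was 0 of 7 as well, against 44% of all genes. The 7 values ran from -2.40 for Dspp to 1.10 for Sp9 on the log2 scale, with Amtn at 0.08 ± 1.11 (SE). Without control 0 d replicate 1, Amtn was called at 3.43 (edgeR adjusted p = 0.0352), Sp9 at 2.31 (edgeR adjusted p = 0.0384) and Mmp20 as well, all higher at 3 d. For Mmp20 the control libraries of 3 d held 50, 35 and 9 counts, against none in the 2 of 0 d that then remained. Over all genes, 5544 of 19251 were called in that fit. From 3 d to 7 d none of the 7 was called in control libraries by edgeR or DESeq2, against 10.9% of all genes by edgeR. Amtn, at -2.82 ± 1.27 (edgeR adjusted p = 0.173), was the 1 member with an unadjusted p under 0.05, against 27.9% of all genes. A fit of these 2 groups alone called Ambn, Amtn and Odam, against 1075 of all 16830 genes tested in it.

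In periodontitis libraries most members had too few counts for a test of time. Filtered on the periodontitis libraries alone, 1 member, Ambn, would be tested at 3 d and at 7 d over 0 d and none at 7 d over 3 d. The others passed the filter through their control libraries, so nothing is read from a member that was not called. Ambn fell by 2.50 ± 0.78 (SE) on the log2 scale at 3 d relative to 0 d (edgeR adjusted p = 0.0325), where 21.2% of all genes were called, 9.02% higher and 12.2% lower. This call was lost without periodontitis 0 d replicate 2 or 3 or any library of periodontitis 3 d, with values between -2.79 and -1.85 and edgeR adjusted p between 0.0574 and 0.157. Over all genes, 4.8% were called from 3 d to 7 d and 27.3% had an unadjusted p under 0.05. From 0 d to 7 d 39% of all genes were called, 18.3% higher and 20.7% lower, and 48.4% had such an unadjusted p. Odam, with 1, 4 and 0 counts at 7 d and 8, 1 and 27 at 0 d, was at -2.76 ± 1.27 (SE) on the log2 scale from 0 d to 7 d (edgeR adjusted p = 0.0955), and DESeq2 gave it an adjusted p of 0.0317. Odam passed the filter through its control libraries, so nothing is read from either p. One library, periodontitis 0 d replicate 1, held all 4 counts of Sp9 at 0 d in that arm, and the libraries of 7 d held 5, 3 and 9. Whether these time changes differ between the arms was not tested, since that difference holds the contrast that chose the members.

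Other tooth genes were looked at in 3 lists without the members: 19 genes of the enamel organ, 12 of dentine and mineralizing matrix and 8 of dental mesenchyme. Of these 39 genes 38 were in the table and 36 dense enough to test. At 0 d edgeR called 7 of the 36 between the arms, 2 higher and 5 lower in periodontitis, against 8.27% of all genes, 4.81% higher and 3.47% lower. The medians were 0.15 for the enamel organ, -0.62 for dentine and mineral and 0.12 for dental mesenchyme on the log2 scale, against -0.02 for all genes. So the enamel organ list as a whole did not lie where Ambn and Odam did at 0 d. At 3 d and 7 d its medians were -0.32 and -0.40, with 13 and 12 of 16 values negative. Over all genes they were -0.004 and 0.01. The medians at 3 d and 7 d were 0.35 and 0.13 for dentine and mineral, and -0.12 and -0.11 for dental mesenchyme.

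The lower genes at 0 d were Relt, Nes, Sost, Dmp1 and Mepe, of which Sost, Dmp1 and Mepe are best known from osteocytes. Relt, a receptor gene needed for enamel in humans, had 23.6, 28.3 and 25.7 CPM in periodontitis and 40.8, 41.6 and 44.2 CPM in control, a log2 difference of -0.70 (edgeR adjusted p = 0.00491). Nes, which encodes nestin, a filament protein of odontoblasts and of nerve and vessel cells, had 76.9, 74.1 and 77.0 CPM in periodontitis and 242, 182 and 125 CPM in control, a log2 difference of -1.27 (edgeR adjusted p = 0.00693). The groups did not overlap for either gene. Sost, the sclerostin gene, was at -1.88 (edgeR adjusted p = 0.0317) and Mepe at -0.998 (edgeR adjusted p = 0.0260). Dmp1, an acidic matrix protein of osteocytes and odontoblasts, had 1897 to 2518 CPM in periodontitis and 3841 to 5483 CPM in control, so it was abundant where Dspp was nearly absent. Smpd3, which encodes a sphingomyelinase needed for bone and dentine mineral in mice, was higher at 1.08 (edgeR adjusted p = 0.0131), and Ibsp, bone sialoprotein, at 0.71 (edgeR adjusted p = 0.0360). None of the 7 calls was made in the fit of the 0 d groups alone. That fit called 65 of all 16800 genes, against 1547 of 18697 in the main fit. The fit without the 5 neuron-rich libraries left 1 periodontitis library at 0 d, so its calls are not read. The count was 2 without periodontitis 0 d replicate 1 or control 0 d replicate 2, with 258 and 316 genes called in all. It was 4 without periodontitis 0 d replicate 3 or control 0 d replicate 3, with 614 and 351 genes called in all.

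At 3 d edgeR called none of the 36 against 0.134% of all genes, and at 7 d none, against 0%. At an unadjusted p under 0.05 there were 10 at 3 d, against 8.26% of all genes, and 7 at 7 d, against 6.35%. DESeq2 called 3 (Ibsp, Mepe and Smpd3) at 3 d and 1 (Wnt10a) at 7 d, against 291 and 112 of all 18697 genes. Wnt10a, a Wnt ligand gene of odontoblasts and dental epithelium, was the gene of its list farthest from 0 on each day. It had 1.08, 0.974 and 0.354 CPM in periodontitis and 8.67, 1.94 and 0.854 CPM in control at 0 d, where the groups overlapped. At 3 d it had 2.73, 3.06 and 2.79 CPM in periodontitis and 15.6, 11.8 and 8.37 CPM in control, and at 7 d 0.526, 1.49 and 0.941 CPM in periodontitis and 24.7, 8.48 and 6.78 CPM in control, with no overlap on these days. Its log2 differences were -2.24 (edgeR adjusted p = 0.0676), -2.05 (0.306) and -3.75 (0.130) at 0 d, 3 d and 7 d, and without control 0 d replicate 1 edgeR called it at 7 d. Msx2, a homeobox gene of ameloblasts and bone, was at -1.70 at 3 d (edgeR adjusted p = 0.299) and -1.60 at 7 d (0.627). Of the other Sall and Sp genes, none of 8 tested was called by edgeR at 0 d, 3 had an unadjusted p under 0.05, against 26.7% of all genes, and 5 of the 8 values were negative, with a median of -0.14 on the log2 scale. Sp8, the nearest relative of Sp9, had 0.721, 0 and 3.30 CPM in periodontitis and 0, 0 and 0.305 CPM in control at 0 d (edgeR adjusted p = 0.0796), so most of its signal lay in periodontitis 0 d replicate 3.

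**Figure D5:**
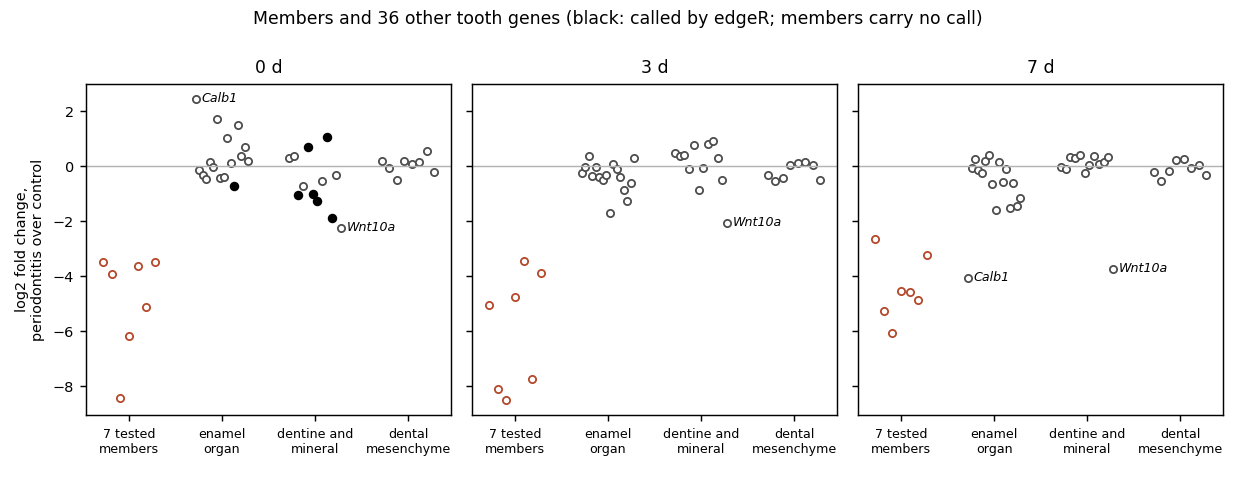
Log2 fold change of periodontitis over control at each day for the 7 tested members (red, no call given) and for the 36 tested genes of the enamel organ, dentine and mineral, and dental mesenchyme lists (grey open, not called; black, called by edgeR). Most other tooth genes lie near 0, where the median over all genes also lies, and Wnt10a is the gene of the dentine list farthest below 0 on each day.

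The genes whose log2 CPM ran most like that of Ambn and Dspp over the 18 libraries were ranked by Pearson's r, as a description over libraries that share arm and day. The members were chosen for a shared arm difference, so nothing is read from their likeness to one another. Ambn was most like Dspp (r = 0.924), then Cntn6 (0.922), Amtn (0.866), Odam (0.855) and Sall3 (0.843). Among the next were Mgst2 (0.839), Camp (0.819), Prss57 (0.819), Ly6g (0.814), I830127L07Rik (0.811) and Prtn3 (0.810), of which Camp, Ly6g, Prss57 and Prtn3 are genes of neutrophils and their precursors. Dspp was most like Amtn (0.943) and Ambn (0.924), with Odam (0.883), Cntn6 (0.883), Sall3 (0.836), Oaz1 (0.803) and Mmp20 (0.796) among those that followed. Sema3e (0.791), Msx2 (0.789), Emilin3 (0.778), Dlx2 (0.765) and Glis1 (0.760) came after these. Camp, an antimicrobial peptide gene of neutrophils, had a median of 102 CPM in periodontitis and 551 CPM in control libraries.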

How the data were processed

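Values in the deposited table are whole-number counts per gene, which the authors left unscaled, with each gene's length in bases. TRIzol RNA and NEBNext Ultra libraries were used, per the labels' protocols. The submitters' processing notes name HISAT2, StringTie and SAMtools and the build mm9. The counting program, its strand setting, the versions and the annotation are given in none of these. Of the 54532 gene identifiers 99.8% occur in GENCODE M21 (GRCm38) and 98.3% of these have the same coordinates, so coordinates are given as GRCm38; those of Sall3 differ and are not printed. Totals ranged from 14139830 to 17763605 counts. Replicates differed by more than sampling noise (lowest chi-square per gene between replicates 8.52).

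Genes were kept by filterByExpr (18697), scaled by TMM and tested with glmQLFit and glmQLFTest in edgeR 4.0.16 (R 4.3.3), with 1 mean per group over all 18 libraries and Benjamini-Hochberg adjustment over all genes tested. Of the members Amelx, Enam and Klk4 did not pass the filter. CPM used TMM-scaled library sizes, log2 CPM a prior count of 2, and intervals of ratios of summed counts are exact binomial ones at 95%. The steps were tested on simulated data. Other settings were library totals, RLE size factors, no filter on low counts, at least 1 CPM in 3 libraries, DESeq2 1.42.0, the compared groups alone, a replicate block, without the 5 neuron-rich libraries and each library left out.

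The members and all gene lists were chosen with earlier results of these data known. Named were all 10 members; from other lists the called genes with the smallest p, up to 5, and the 3 with the largest change in a comparison, of which those most apart are printed; and for Ambn and Dspp the 8 genes with the highest correlation. A gene result is not reported here.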

Additional observations from a re-analysis of the deposited data

How the results depend on the processing

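Counts of called genes are by edgeR at an adjusted p under 0.05. RLE size factors, library totals and keeping genes with 1 CPM or more in 3 libraries left the 6 counts of members called with time as they were. In the fit of the compared groups alone, 3 members were called in control from 3 d to 7 d in place of 0 and 1 from 0 d to 7 d in place of 2, with 2 other tooth genes called between arms at 3 d in place of 0 and 0 at 0 d in place of 7. Over all genes these fits called, in the same order, 1075 of 16830, 6777 of 16961, 149 of 16896 and 65 of 16800. DESeq2 called 1 member, Odam, in periodontitis from 0 d to 7 d in place of 0. Odam passed the filter through its control libraries, so nothing is read from this. DESeq2 also called 3 and 1 other tooth genes between arms at 3 d and 7 d, in place of 0 on each day. Over all 18697 genes it called 7771 in periodontitis from 0 d to 7 d, and 291 and 112 between arms at 3 d and 7 d. With no low-count filter 1 other tooth gene was called at 3 d and 1 at 7 d, against 133 and 40 of all 35158 genes. The fit without the 5 libraries rich in ganglion neuron genes left 1 periodontitis library at 0 d and also at 3 d, so its calls are not read. In that fit Odam from 0 d to 7 d in periodontitis turned to 0.48 on the log2 scale. The cause of these shifts was not tested.

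Leaving out each library in turn, between 0 and 3 members were called in control from 0 d to 3 d, 0 and 3 in control from 0 d to 7 d, 0 and 1 in periodontitis from 0 d to 3 d and 0 and 1 from 0 d to 7 d. Of all genes, these fits called 5269 to 7144, 6426 to 8319, 2520 to 4645 and 5485 to 7593 in the same order. Other tooth genes called ranged from 2 to 8 at 0 d and from 0 to 1 at 7 d. Over all genes, between 258 and 2121 were called at 0 d and between 0 and 7 at 7 d.

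The replicate block called 3 members in control from 0 d to 7 d in place of 2, Sp9 being added at 1.79 (edgeR adjusted p = 0.0432), and 8 other tooth genes at 0 d in place of 7. Of all 18697 genes it called 7592 and 1572 in these comparisons. Same-numbered libraries of the arms deviated together with correlations from -0.193 to 0.659, so the numbers give no pairing. Depth limits Enam, Amelx and Klk4, whose counts over a group were at most 13.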

Other observations

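Of 8 transcription factor genes of the dental mesenchyme, some were called higher after extraction in each arm. In control libraries edgeR called 5 of the 8 higher at 3 d and 5 at 7 d than at 0 d, and none lower. In periodontitis libraries it called 4 of 8 higher at 3 d and 4 at 7 d than at 0 d, and none lower. Msx1, a homeobox gene of tooth and jaw mesenchyme, was at 1.52 in periodontitis and 2.02 in control on the log2 scale at 3 d over 0 d (edgeR adjusted p = 3.18e-05 in periodontitis and 1.46e-06 in control). Pax9 was at 1.19 in periodontitis and 1.32 in control at 7 d over 0 d (edgeR adjusted p = 4.37e-05 in periodontitis and 9.81e-06 in control). Between 16.4% and 20% of all genes were called higher in these comparisons in control, and 9.02% and 18.3% in periodontitis. Others did not pass: Dlx2 was at -0.25 and -0.16 in periodontitis and -0.33 and -0.47 in control at 3 d and 7 d over 0 d, and Lhx6 and Lhx8 were not called in any of these 4 comparisons. Whether the changes differ between the arms was not tested.

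Relt, from the enamel organ list, was lower at 7 d than at 0 d in both arms. It was at -1.28 in periodontitis and -1.88 in control on the log2 scale (edgeR adjusted p = 1.44e-06 in periodontitis and 3.04e-08 in control). Which cells expressed Relt was not tested. Odaph, which is needed for enamel maturation in mice, was lower too, at -3.97 in periodontitis and -3.08 in control (edgeR adjusted p = 0.00684 in periodontitis and 0.0222 in control). Its levels at 0 d were 8.11, 8.14 and 3.30 CPM in periodontitis and 4.37, 3.82 and 1.28 CPM in control, so this enamel gene, unlike Ambn, was not lower in periodontitis at 0 d in these libraries.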
